A study of Mus musculus with 24 samples.

Results

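AZD5582 at 0.1 µM was the lowest of 3 doses given to mouse dendritic cells grown with GM-CSF, and it is compared here with its solvent, DMSO. The members are 6 of the 24 libraries of the series, chosen by their labels: 3 cultures treated with 0.1 µM AZD5582 for 24 h and 3 cultures treated with the same volume of DMSO for 24 h. Per the labels' protocols, bone marrow cells from the hind legs of wild-type or Cas9-EGFP C57BL/6JRj mice were grown in 20 ng/ml GM-CSF, and which mice gave which library is not stated. All 6 cultures received GM-CSF throughout. The submitters count 3 biological replicates and call the cells moDCs, and whether a replicate was 1 mouse or a pool is not given. One protocol gives day 8 of culture for the harvest of these cells, while another gives day 9 as the day of use. The same study treated further GM-CSF cultures with 0.5 and 1 µM, which serve below to show where 0.1 µM lies on the dose scale. The title places these data beside a compound screen in which an IAP antagonist raised T cell proliferation after dendritic cells had cross-presented antigen.

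AZD5582 is a small molecule that imitates the SMAC protein and binds the inhibitor of apoptosis proteins (IAPs). When it binds cIAP1 and cIAP2, encoded by Birc2 and Birc3, these ubiquitin ligases destroy themselves. In resting cells they sit with TRAF2 and TRAF3 on the kinase NIK, encoded by Map3k14, and keep it short-lived. Without them NIK accumulates and the non-canonical NF-kB pathway processes p100, the product of Nfkb2, into a subunit that pairs with RelB. Dendritic cells use that route downstream of CD40 when they mature, a state in which they move to lymph nodes, show antigen with co-stimulatory ligands and take up less material. Cultures of bone marrow in GM-CSF are mixed, and hold macrophage-like cells and some granulocytes beside dendritic cells.

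The libraries held 37218202 to 62536645 counts on genes with 0.1 µM AZD5582 and 45268073 to 81007086 with DMSO. Mitochondrial transcripts took 3.53 to 4.76% of counts with 0.1 µM and 3.20 to 4.79% with DMSO, so the groups overlapped. Ribosomal protein transcripts took 3.03 to 3.35% with 0.1 µM and 3.42 to 4.03% with DMSO, without overlap, and the part of that difference in the results was not tested. Reads assigned to no gene made up 12.5 to 13.3% of all counts with 0.1 µM and 13.6 to 14.1% with DMSO. Cd74, the invariant chain of MHC class II, had 6077, 6629 and 6627 CPM (counts per 1000000 counts) with 0.1 µM. With DMSO it had 9015, 9713 and 7605 CPM. It was lower with 0.1 µM (log2 change -0.45, adjusted p = 0.013 by edgeR), a call lost without treated library 1 or DMSO library 2. This gene alone does not identify the cells. Of 14 dendritic cell markers 4 rose and 6 fell (3 fell without treated library 1 or DMSO library 2). Levels below are CPM scaled by the trimmed mean of M-values, changes are log2 of 0.1 µM over DMSO with their standard error (SE), and a gene is called when the edgeR quasi-likelihood test gives a Benjamini-Hochberg adjusted p under 0.05 over all genes. CPM is not divided by gene length, so levels are compared between groups and not between genes. These are whole cultures, in which fewer cells of a type and less RNA per cell cannot be told apart.

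At the lowest dose 6503 of 16152 genes tested were called, which is 40.3%. Of these, 3220 (19.9%) were higher and 3283 (20.3%) were lower with 0.1 µM. Most were modest, since 4002 changed by less than 2-fold, while 1149 genes (7.11%) rose and 1352 (8.37%) fell by at least 2-fold. At least 4-fold changes numbered 396 rises and 507 falls, and at least 16-fold changes 58 rises and 94 falls. The median log2 change was 0.74 among called rises, -0.82 among called falls and -0.01 among all genes tested. The genes that rose at least 2-fold took 12.9 to 14.0% of the scaled counts with 0.1 µM and 4.29 to 5.28% with DMSO. The genes that fell at least 2-fold took 3.19 to 3.72% with 0.1 µM and 9.68 to 11.1% with DMSO. These genes were chosen by that contrast, and the shares describe how much of the RNA they make up. Of the 16152 genes tested, 6297 called genes and a further 2157 not called had every library of one group above every library of the other. Such separation was thus common among all genes and does not by itself mark a gene out. The 19.9% of all genes higher and 20.3% lower are the background against which each list count with 0.1 µM stands below. Among the 13270 protein-coding genes tested the shares were slightly larger, with 2934 genes higher and 3017 lower. Where counts are also given from a fit of all 24 libraries, that fit adds the study's 9 cultures with FLT3L to the 15 with GM-CSF alone.

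**Figure D1:**
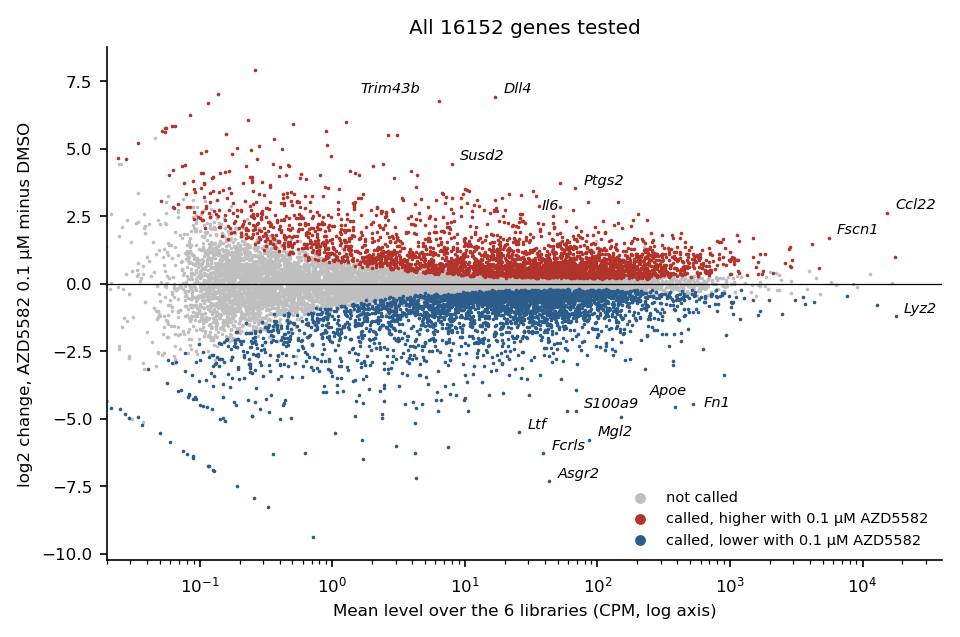
Each point is one of the 16152 genes tested, with its mean level over the 6 libraries on a log axis (CPM) and its log2 change, AZD5582 0.1 µM minus DMSO; red and blue mark called genes. Called genes lie on both sides of 0 in similar numbers (3220 above, 3283 below), and Ccl22 and Fscn1 stand out among the abundant ones.

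The RNA of the compound's own targets moved modestly. Birc2, which encodes cIAP1, had 219, 203 and 225 CPM with 0.1 µM and 116, 143 and 152 CPM with DMSO, without overlap, and rose by 0.66 ± 0.12 (SE, adjusted p = 2.9e-04). Birc3, which encodes cIAP2, had 294, 280.02 and 318 CPM against 251, 262 and 252 CPM. The groups did not overlap either, yet the change of 0.22 ± 0.09 (SE) missed the threshold (adjusted p = 0.054), while DESeq2 gave 0.036. Xiap, the IAP that blocks caspases directly, had 83.3 ± 8.21 CPM with 0.1 µM and 84.8 ± 20.1 CPM with DMSO (SD, n = 3 each) and was not called. Of 12 IAP family and antagonist genes tested, 2 rose and 4 fell. The other rise was Htra2, a mitochondrial protease that can bind IAPs, with 175, 157 and 167 CPM against 80.05, 83.3 and 77.9 CPM (1.05 ± 0.08, SE, adjusted p = 9.8e-09). The 4 falls were the Naip genes, which encode sensors of bacterial proteins in the cytosol. Naip5 had 15.03, 14.2 and 14.7 CPM against 28.4, 29.3 and 28.3 CPM. The Naip genes are close copies of each other, so the split of reads between them is uncertain.

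The adaptors and kinases around NIK moved more. Of 22 TRAF, NIK and IKK genes tested, 13 rose and 2 fell, where 19.9% of all genes rose, with a median change of 0.30. The fit of all 24 libraries called 6 higher and 1 lower. Traf3, the adaptor that recruits NIK to the IAPs, had 118, 123 and 128 CPM with 0.1 µM and 54.8, 60.6 and 51.9 CPM with DMSO. The groups were far apart, and the change was 1.14 ± 0.10 (SE, adjusted p = 1.0e-07). Its partner Traf2 had 74.1, 71.5 and 79.4 CPM against 40.97, 45.02 and 41.4 CPM (0.82 ± 0.08, SE, adjusted p = 4.0e-07). Traf4, another member of the family, changed most, with 39.3, 28.5 and 34.3 CPM against 3.23, 3.30 and 4.92 CPM and a log2 change of 3.18 ± 0.17 (SE, adjusted p = 3.9e-10). NIK itself is controlled through the stability of its protein, and its transcript Map3k14 was not called, at 129.6, 126 and 133 CPM against 131, 150.2 and 152 CPM (-0.16 ± 0.10, SE, adjusted p = 0.21). The clearest fall in the list was Ikbke, an IKK-related kinase of the interferon response, with 27.7, 27.2 and 29.3 CPM against 98.2, 88.03 and 76.3 CPM (-1.64 ± 0.11, SE, adjusted p = 2.4e-09).

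Most NF-kB subunits and their inhibitors rose. Of 16 tested, 11 rose and 1 fell, where 19.9% of all genes rose, with a median change of 0.55. The fit of all 24 libraries called 3 higher, and Nfkb2 (adjusted p = 0.050) and Relb (adjusted p = 0.32) were not among them. Tnfaip3, which encodes the deubiquitinase A20 that restrains the pathway, had 699, 569.5 and 642 CPM with 0.1 µM and 184, 213 and 195 CPM with DMSO (1.69 ± 0.15, SE, adjusted p = 6.8e-08). Nfkbia, the inhibitor IkBα, had 1160.2, 947 and 851 CPM against 405, 439.96 and 337 CPM (1.32 ± 0.13, SE, adjusted p = 2.8e-07). Nfkb2 had 705, 689 and 772 CPM against 333, 396 and 326 CPM, with every treated library well above every DMSO library (1.04 ± 0.11, SE, adjusted p = 7.5e-07). Relb, its partner, rose less, by 0.56 ± 0.12 (SE), with 511 ± 59.4 CPM against 346 ± 36.1 CPM (SD, n = 3 each). Nfkb1, the precursor of p50 of the canonical pathway, missed the threshold at 0.32 ± 0.14 (SE, adjusted p = 0.082), and was called without the filter on low counts (adjusted p = 0.037) or with the 2 groups fitted alone (adjusted p = 0.020). The single fall was Tnip3, which encodes a partner of A20, with 44.7, 42.6 and 37.1 CPM against 132, 108 and 111 CPM.

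Matches to the NF-kB consensus (GGGRNWYYCC, where R is A or G, W is A or T, Y is C or T and N is any base) were searched on both strands of promoters in RefSeq's table on GRCm38.p6, from 250 bases before to 50 bases after each start. Among 10437 tested protein-coding genes with a promoter there, 6.45% held a match. The share was 10.67% (78 of 731) among genes up at least 2-fold and 6.01% (54 of 898) among genes down at least 2-fold. For the AP-1 heptamer TGANTCA the shares were 6.56% of all, 8.89% of the rises and 11.69% of the falls. Genes with a single promoter gave 9.53% of rises, 4.95% of falls and 5.29% of all for the NF-kB consensus. These shares are descriptions, since a match is not a bound site. Of 29 genes searched by name, chosen after their values were seen, 22 had a promoter in the table and 9 of them held a match. The promoters of Nfkb2, Nfkbia, Tnfaip3, Traf3 and Il6 are printed as a selection, made after the matches were seen, of those with a match within the last 150 bases before the start. Those of Irf1 and Rel hold such a match too and are not printed. They run 5′ to 3′ on the gene's own strand, and capitals mark the matched bases. The windows are chr19:46304587-46304736 on the plus strand for Nfkb2, chr12:55492648-55492797 on the minus strand for Nfkbia, chr10:19015411-19015560 on the minus strand for Tnfaip3, chr12:111166220-111166369 on the plus strand for Traf3 and chr5:30012964-30013113 on the plus strand for Il6. In Nfkb2 a pair of overlapping matches shares the first run of capitals.
Nfkb2: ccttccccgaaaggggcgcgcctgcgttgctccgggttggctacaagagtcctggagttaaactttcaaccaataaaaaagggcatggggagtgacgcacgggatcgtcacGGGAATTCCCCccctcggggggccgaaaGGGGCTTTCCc
Nfkbia: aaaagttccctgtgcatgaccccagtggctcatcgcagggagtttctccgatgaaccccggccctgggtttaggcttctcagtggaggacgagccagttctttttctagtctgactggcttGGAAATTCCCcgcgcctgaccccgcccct
Tnfaip3: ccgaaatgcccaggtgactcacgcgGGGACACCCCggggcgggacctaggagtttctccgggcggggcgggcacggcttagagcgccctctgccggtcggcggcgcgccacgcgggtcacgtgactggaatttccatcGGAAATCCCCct
Traf3: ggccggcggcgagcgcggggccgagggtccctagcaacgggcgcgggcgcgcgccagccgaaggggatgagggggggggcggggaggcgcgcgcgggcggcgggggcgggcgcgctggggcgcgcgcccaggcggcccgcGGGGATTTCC
Il6: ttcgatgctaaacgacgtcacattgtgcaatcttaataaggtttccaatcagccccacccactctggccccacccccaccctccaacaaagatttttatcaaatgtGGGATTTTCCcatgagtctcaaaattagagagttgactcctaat

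Among protein-coding genes with at least 10 CPM in a group, the largest rises included Dll4. This gene, a Notch ligand through which dendritic cells instruct T cells, had 36.8, 27.5 and 36.95 CPM with 0.1 µM and 0.149, 0.351 and 0.341 CPM with DMSO (6.94 ± 0.30, SE, adjusted p = 2.0e-10). Plat, the tissue-type plasminogen activator, had 109, 80.99 and 101 CPM against 6.09, 9.06 and 6.33 CPM (3.75 ± 0.23, SE, adjusted p = 5.3e-09). Susd2, a membrane protein with a sushi domain, had 13.7, 14.6 and 17.6 CPM against 0.584, 0.913 and 0.554 CPM (4.46 ± 0.20, SE). In each of these 3 genes the lowest treated library lay several-fold above the highest DMSO library. Erbb2, a receptor tyrosine kinase of epithelia, had 19.5, 15.00 and 20.3 CPM against 1.66, 1.23 and 2.02 CPM (3.50 ± 0.18, SE). Gcm1, a factor of placental trophoblast, rose by 3.44 ± 0.41 (SE). Dusp14, a phosphatase of MAP kinase signalling, had 71.3, 58.7 and 57.1 CPM against 4.96, 7.20 and 7.67 CPM, and Gng4, a G protein gamma subunit, 56.3, 46.2 and 42.9 CPM against 4.198, 5.98 and 4.64 CPM. Hspa1b, an inducible heat shock protein, had 38.9 ± 6.21 CPM against 3.85 ± 1.12 CPM (SD, n = 3 each). Trim43b, Hspa1b and Khdc1a have near-identical copies in the genome, so their own levels are uncertain.

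Among the largest falls, Apoe, the lipid carrier secreted by macrophages, had 30.6, 30.5 and 32.3 CPM with 0.1 µM and 883, 570.01 and 747 CPM with DMSO (-4.56 ± 0.20, SE, adjusted p = 1.8e-10). Fn1, fibronectin, had 32.8, 56.01 and 49.5 CPM against 1287, 1062 and 687 CPM (-4.46 ± 0.33, SE, adjusted p = 6.8e-08). In both genes the highest treated library lay more than 10-fold below the lowest DMSO library. Ltb4r1, the high-affinity receptor for leukotriene B4, had 0.710, 0.546 and 1.00 CPM against 23.5, 22.8 and 15.1 CPM (-4.72 ± 0.29, SE). F5, coagulation factor V, had 0.595, 0.818 and 0.404 CPM against 12.9, 10.2 and 11.5 CPM (-4.29 ± 0.26, SE). Padi4, which citrullinates histones in neutrophils, fell by 4.32 and the membrane protein gene Ifitm6 by 4.30 on the log2 scale. The kallikreins Klk1b11 and Klk1b9 fell by 4.94 and 4.72, and are close copies whose reads may be shared.

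**Figure D2:**
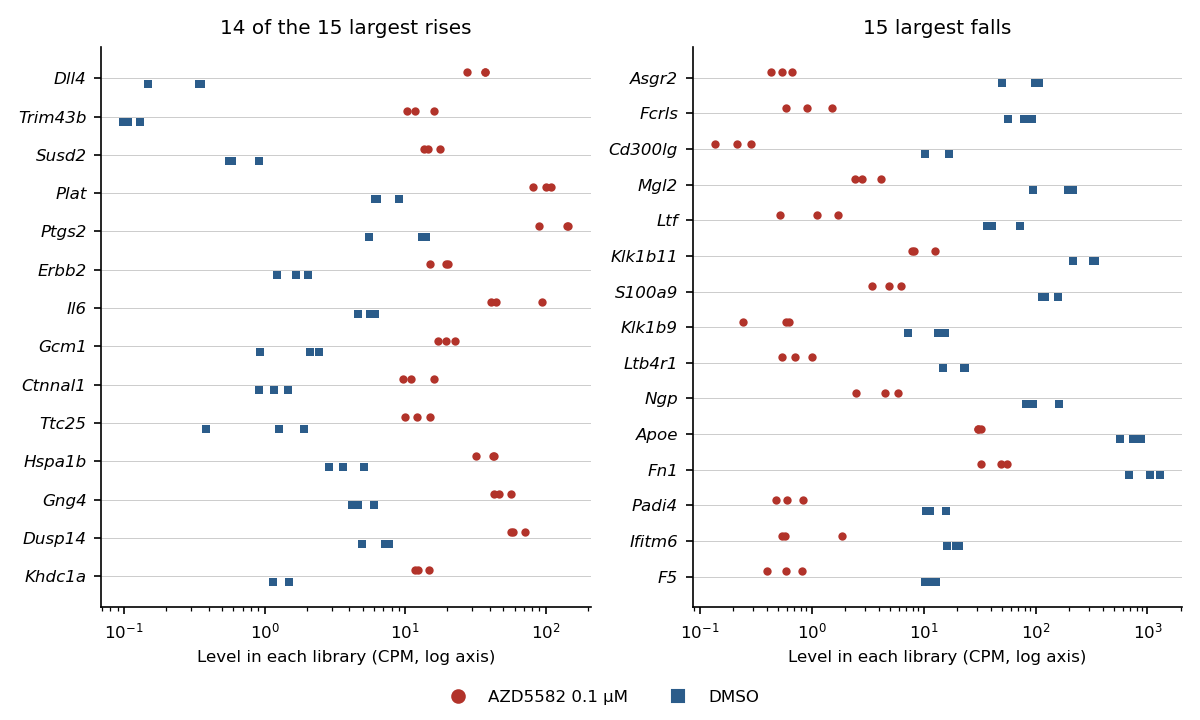
Level in each library (CPM, log axis) of 14 of the 15 largest rises and the 15 largest falls named by rule; red circles are AZD5582 0.1 µM and blue squares DMSO, 3 libraries each. The genes were picked by this contrast, and in all of them the groups do not overlap, for example 109, 80.99 and 101 CPM with 0.1 µM and 6.09, 9.06 and 6.33 CPM with DMSO for Plat.

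Genes that mark migratory, mature dendritic cells rose almost as a whole. Of 33 tested, 31 rose and 0 fell by edgeR's test, where 19.9% of all genes rose, and the median change was 1.01 against -0.01 for all genes. Their summed level was 66259 ± 6825 CPM with 0.1 µM and 21099.8 ± 2432 CPM with DMSO (SD, n = 3 each). The members not called were Slco5a1 and Nr4a3, with log2 changes of 0.32 and -0.39. Without the filter on low counts 1 member fell. Ccl22, a chemokine that attracts regulatory T cells, had 31506, 29394 and 18201 CPM against 3975, 5421 and 3397 CPM (2.63 ± 0.29, SE, adjusted p = 2.1e-06). Treated library 3 was well below the other treated libraries and still above every DMSO library. Fscn1, the actin bundler of dendrites, had 8550.5, 8101 and 8826 CPM against 2139, 2833 and 2786 CPM (1.72 ± 0.12, SE, adjusted p = 7.6e-09). Ccr7, the receptor that guides dendritic cells to lymph nodes, had 4244, 3771 and 4304 CPM against 1386, 1648 and 1764 CPM, and Serpinb6b, a protease inhibitor, 2273, 2308 and 2309 CPM against 577, 759 and 784 CPM. Socs2, a brake on cytokine signalling, rose by 1.37 ± 0.09 (SE), and Il4i1, which oxidises aromatic amino acids, by 0.85 ± 0.12 (SE).

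Ligands that act on T cells moved both ways. Of 17 co-stimulation and checkpoint genes tested, 9 rose and 3 fell, with a median change of 0.66. The maturation receptor Cd40 had 249 ± 23.9 CPM with 0.1 µM and 59.5 ± 11.9 CPM with DMSO, and the CD28 ligands Cd80 and Cd86 had 181 ± 42.9 against 47.8 ± 1.77 CPM and 398 ± 65.4 against 109 ± 4.61 CPM (SD, n = 3 each). These 3 genes and Cd200, an inhibitory ligand, rose by 2.06, 1.92, 1.88 and 2.36. Pvr, the ligand of DNAM-1 and TIGIT, had 133, 117 and 109.8 CPM with 0.1 µM and 26.8, 35.7 and 30.2 CPM with DMSO (1.96 ± 0.11, SE, adjusted p = 5.5e-10). Vsir, which encodes the inhibitory protein VISTA, went the other way, with 66.1, 89.3 and 89.8 CPM against 362, 363 and 304 CPM (-2.07 ± 0.12, SE, adjusted p = 5.3e-10). Lgals9, a ligand of TIM-3, fell by 0.77 and Cd48, a ligand of 2B4, by 0.46, and the call for Cd48 was lost without treated library 3 (adjusted p = 0.056) or DMSO library 1 (adjusted p = 0.076). Among 14 TNF superfamily ligands, 5 rose and 7 fell. Tnfsf9, which encodes 4-1BB ligand, had 52.7, 41.7 and 40.6 CPM against 9.15, 11.4 and 6.18 CPM (2.33 ± 0.21, SE, adjusted p = 1.8e-07). Tnfsf4, OX40 ligand, had 299, 216 and 197 CPM against 41.3, 52.5 and 57.1 CPM, and the RANK ligand gene Tnfsf11 rose at a low level, with 0.710, 1.01 and 0.178 CPM against 0.05, 0.059 and 0.021 CPM. Tnfsf14, LIGHT, had 0.321, 0.464 and 0.162 CPM against 3.79, 3.03 and 2.94 CPM, and Tnfsf8, CD30 ligand, fell by 2.47. Tnf had 21.1, 20.4 and 17.7 CPM against 29.8, 30.8 and 19.2 CPM (-0.44 ± 0.17, SE, adjusted p = 0.045). Its groups overlapped, and the call was lost without any one of 5 of the 6 libraries, with adjusted p = 0.064, 0.078 and 0.15 without the treated libraries 1, 2 and 3 and 0.17 and 0.20 without DMSO libraries 1 and 2.

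Of 16 TNF superfamily receptors, 6 rose and 5 fell. Tnfrsf11b, the decoy receptor osteoprotegerin, had 4.70, 4.23 and 4.35 CPM with 0.1 µM and 0.758, 0.796 and 0.532 CPM with DMSO. Tnfrsf1a, the main death-signalling receptor of TNF, had 67.7, 67.3 and 68.7 CPM against 149, 126 and 116 CPM (-0.94 ± 0.11, SE, adjusted p = 1.8e-06). Tnfrsf13b, a receptor for BAFF and APRIL, fell, with 13.4, 13.4 and 12.4 CPM against 45.8, 42.6 and 41.5 CPM. Of 19 Notch genes, 5 rose and 8 fell. Jag1, a ligand like Dll4, had 393, 295 and 358 CPM against 46.6, 60.2 and 65.7 CPM (2.60 ± 0.16, SE, adjusted p = 1.8e-09). Notch2, a receptor, had 93.7, 84.6 and 95.7 CPM against 213, 197 and 198 CPM (-1.15 ± 0.11, SE, adjusted p = 1.5e-07).

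Of 22 cytokine genes, 12 rose and 2 fell, with a median change of 0.91. Csf1, the growth factor of macrophages, had 206, 218 and 227 CPM with 0.1 µM and 46.6, 54.5 and 44.1 CPM with DMSO (2.16 ± 0.12, SE, adjusted p = 5.0e-10). Il1rn, the antagonist of the interleukin-1 receptor, had 1204, 1259 and 1125 CPM against 393, 408 and 404 CPM (1.57 ± 0.12, SE, adjusted p = 1.6e-08). Il12b, the shared subunit of interleukins 12 and 23, had 576, 458 and 657 CPM against 122, 174 and 226 CPM. Il13, a type 2 cytokine, was low but separated the groups, at 3.14, 1.99 and 2.35 CPM against 0.025, 0.059 and 0.021 CPM (5.98 ± 0.50, SE). The falls were Il16, with 5.68, 9.49 and 8.89 CPM against 50.8, 46.6 and 42.1 CPM, and Il18, with 3.46, 4.07 and 3.62 CPM against 12.5, 12.1 and 10.2 CPM. The inflammatory genes Il1a and Il1b were not called (0.28 and 0.16). Among 25 chemokines 7 rose and 9 fell. Cxcl1, which draws neutrophils, had 27.7, 15.9 and 11.6 CPM against 2.66, 2.35 and 1.83 CPM, and Cxcl16 had 1112, 1073 and 1117 CPM against 534, 576 and 587 CPM. Cxcl14 fell by 1.44. Without treated library 3 or without DMSO library 2, 5 chemokines fell.

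The receptors for such signals mostly fell. Of 22 chemoattractant receptors, 14 fell and 4 rose, against 20.3% and 19.9% of all genes, and the median change was -1.32. Ccr2, which brings monocytes to inflamed tissue, had 26.8, 60.6 and 50.7 CPM with 0.1 µM and 430.4, 418 and 375 CPM with DMSO (-3.15 ± 0.27, SE, adjusted p = 3.0e-07). Fpr1, a receptor for formylated bacterial peptides, had 11.4, 15.9 and 9.53 CPM against 95.5, 84.8 and 72.9 CPM (-2.79 ± 0.20, SE, adjusted p = 1.6e-08). C3ar1, the receptor of complement C3a, had 29.04, 45.3 and 33.2 CPM against 175, 179 and 228 CPM. Cxcr5, which guides cells to lymph node follicles, rose with Ccr7, at 7.97, 11.9 and 10.03 CPM against 2.55, 5.55 and 3.73 CPM, as did Cxcr4 at 124, 160.2 and 167 CPM against 79.2, 102 and 110.4 CPM.

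The machinery for showing antigen divided by class. Class I molecules carry peptides from the cytosol to CD8 T cells, and class II molecules carry peptides from endosomes to CD4 T cells. Of 23 class I genes, 16 rose and 1 fell, with a median change of 0.64. Of 16 class II genes, 1 rose and 9 fell, with a median of -0.45, where 19.9% of all genes rose and 20.3% fell. Tapbpl, a peptide editor of class I, had 245, 234 and 288 CPM with 0.1 µM and 92.7, 115 and 109 CPM with DMSO (1.27 ± 0.13, SE, adjusted p = 2.7e-07). Tapbp, tapasin, had 1073, 1045 and 1133 CPM against 527, 572 and 620.1 CPM, and Psme2, an activator of the proteasome, 884, 745 and 809 CPM against 355, 414 and 356 CPM. H2-Q4, a non-classical class I gene, had 407, 310.1 and 389 CPM against 154, 176 and 172 CPM, with reads that it may share with other H2-Q genes. The classical gene H2-K1 rose by 0.42 ± 0.10 (SE), while H2-D1 was not called (0.09 ± 0.11, SE, adjusted p = 0.55). The single fall, Pdia3, was small (-0.30 ± 0.10, SE, adjusted p = 0.027) and was lost without treated library 1 or 3 or DMSO library 1.

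On the class II side H2-Ab1, the beta chain of I-A, had 1051, 1148 and 1159.5 CPM with 0.1 µM and 2384, 2502 and 1801 CPM with DMSO (-0.99 ± 0.13, SE, adjusted p = 7.8e-06). H2-DMb1, a chain of the peptide exchanger, had 61.95, 72.8 and 81.9 CPM against 195, 159 and 126 CPM, and H2-Ob, its modulator, 3.37, 4.07 and 3.52 CPM against 16.8, 22.7 and 12.8 CPM. Ciita, the master regulator of these genes, fell by 0.87. H2-Eb1, the beta chain of I-E, was not called (-0.35 ± 0.14, SE, adjusted p = 0.064), but was under DESeq2 (adjusted p = 0.0497) and without DMSO library 3 (adjusted p = 0.026). Ifi30, a thiol reductase that unfolds antigen in endosomes, was the single rise, at 518, 572 and 569.9 CPM against 259, 354 and 249 CPM, and 2 members rose without DMSO library 2 or 3. The summed class II level was 17505 ± 1113 CPM against 24067 ± 2076 CPM and the summed class I level 18315 ± 324 CPM against 13557 ± 350 CPM (SD, n = 3 each).

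**Figure D3:**
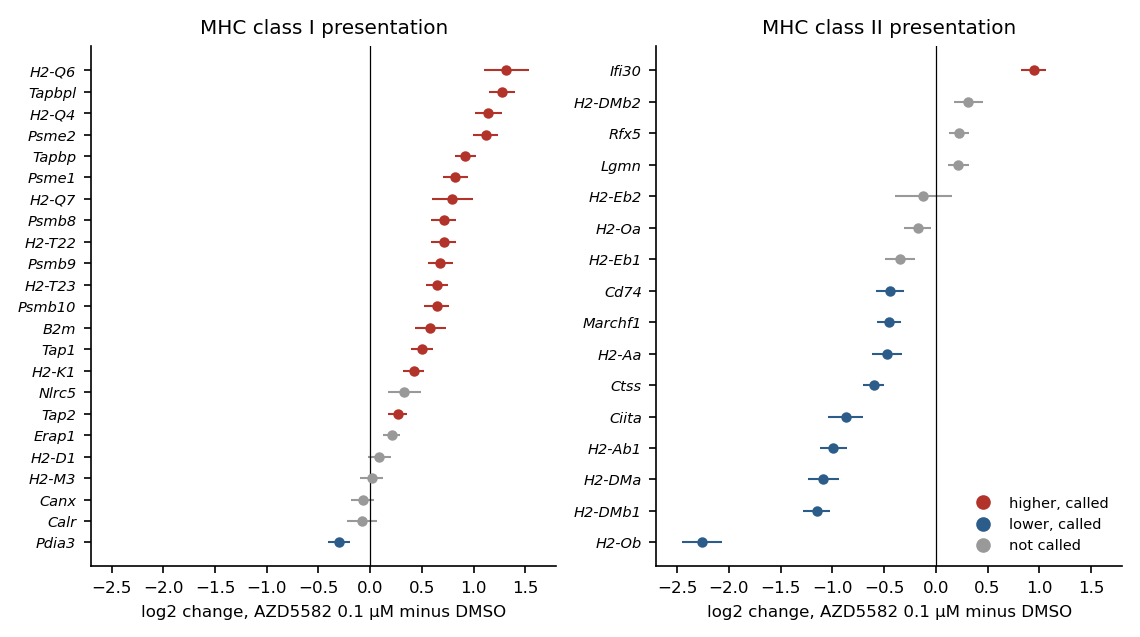
Log2 change, AZD5582 0.1 µM minus DMSO, of each MHC class I (left) and class II (right) gene tested, with its standard error; red genes were called higher, blue genes lower, grey genes not called. On the left 16 of 23 genes lie above 0 and were called, and on the right 9 of 16 lie below 0 and were called.

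Most macrophage genes fell. Of 34 monocyte and macrophage genes, 28 fell and 3 rose, with a median change of -1.62, and their summed level was 20093 ± 1102 CPM with 0.1 µM and 40639 ± 3296 CPM with DMSO (SD, n = 3 each). Csf1r, the receptor of the macrophage growth factor, had 295, 423 and 453 CPM against 1650.1, 1361 and 1378 CPM (-1.91 ± 0.13, SE, adjusted p = 4.9e-09). C1qc, a chain of complement C1q, had 33.5, 48.6 and 53.2 CPM against 362, 311 and 252 CPM (-2.77 ± 0.19, SE, adjusted p = 7.9e-09). Lyz2, lysozyme, remained abundant at 10473, 10929 and 10910.3 CPM against 27817, 22917 and 23558 CPM. The rises were Marco, a scavenger receptor, with 158, 169 and 165 CPM against 74.5, 93.1 and 62.1 CPM, Tgfbi, an extracellular matrix protein, with 753, 858 and 813 CPM against 578, 506 and 454 CPM, and Spp1. Among 20 C-type lectin receptors 13 fell and 4 rose, with a median of -1.64. Clec10a, a galactose lectin, had 1.33, 2.07 and 1.57 CPM against 32.5, 31.9 and 21.4 CPM, and Cd209a, a relative of DC-SIGN, 0, 0.164 and 0.032 CPM against 10.3, 6.42 and 8.94 CPM. Ly75, which encodes the uptake receptor DEC-205 of dendritic cells, rose instead, with 381, 363 and 325 CPM against 117, 143 and 157 CPM (1.36 ± 0.17, SE, adjusted p = 3.4e-06).

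Genes of uptake and digestion mostly fell. Of 24 phagocytosis and Fc receptor genes, 17 fell and 3 rose, with a median change of -0.71. Fcgr4, an Fc receptor for IgG, had 6.96, 11.2 and 8.54 CPM with 0.1 µM and 47.6, 57.5 and 67.1 CPM with DMSO, and Axl, a receptor for dying cells, 228, 297 and 296 CPM against 669, 569.6 and 618 CPM. Tyro3, of the same receptor family as Axl, rose, with 17.8, 18 and 19.97 CPM against 5.56, 5.12 and 4.94 CPM (1.83 ± 0.12, SE, adjusted p = 1.4e-09). Of 34 lysosomal genes, 22 fell and 5 rose, with a median of -0.43. Ctsl, a cathepsin, had 210.1, 268 and 221 CPM against 554, 529 and 639.95 CPM, and Hexa, a hexosaminidase chain, fell by 1.03. Ctsz and Cd63 were among the rises, at 0.61 and 0.74.

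Marker lists of other cells moved beside these genes. Of 22 neutrophil genes, 18 fell and 0 rose by edgeR's test, with a median change of -2.96. Their summed level was 188 ± 52.3 CPM with 0.1 µM and 967 ± 106 CPM with DMSO (SD, n = 3 each). Lcn2, a granule protein, had 2.52, 4.15 and 3.33 CPM against 47.95, 56.1 and 68.5 CPM, and Csf3r, the receptor of G-CSF, 2.703, 2.56 and 3.75 CPM against 30.4, 24.7 and 30.3 CPM. Of 10 eosinophil genes 1 rose and 3 fell. The rise, Epx, was lost without any single treated library and without DMSO library 1 or 2, and 3 genes rose without DMSO library 3. Together their summed level was 93.1 ± 9.91 CPM against 263 ± 37.4 CPM, mostly from Ear2 with 54.1, 56.6 and 42.8 CPM against 242, 219.8 and 163 CPM. Of 12 mast cell and basophil genes, 0 rose and 1 fell (Il1rl1), and Mcpt4 and Tpsab1, not among them, had no count. There was 1 rise without treated library 1 and 2 without the filter on low counts. Of 12 T, B and NK cell genes, 5 rose and 2 fell, at summed levels of 16.4 ± 0.89 CPM against 13.8 ± 2.48 CPM, and the killer cell genes Ncr1, Gzma and Prf1 had no count. The 5 rises were 3 without treated library 2 or 3 and 2 without DMSO library 1 or 2. Of 10 erythroid and stromal genes, 1 rose and 2 fell, and Hba-a2 had no count. The 2 falls were 1 without treated library 1 or 2 or DMSO library 1, under DESeq2, without the filter and with the 2 groups alone, and 0 with all 24 libraries. Of 12 markers of type 1 conventional dendritic cells 3 rose and 6 fell, so the list did not move one way. Irf8, a factor of that lineage, rose, with 1418, 1291 and 1422 CPM against 535, 659.97 and 633 CPM, and Wdfy4, needed for cross-presentation, fell, with 25.9, 33.3 and 30.5 CPM against 139, 145 and 104 CPM. The part of other cell types in the changes above was not tested.

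**Figure D4:**
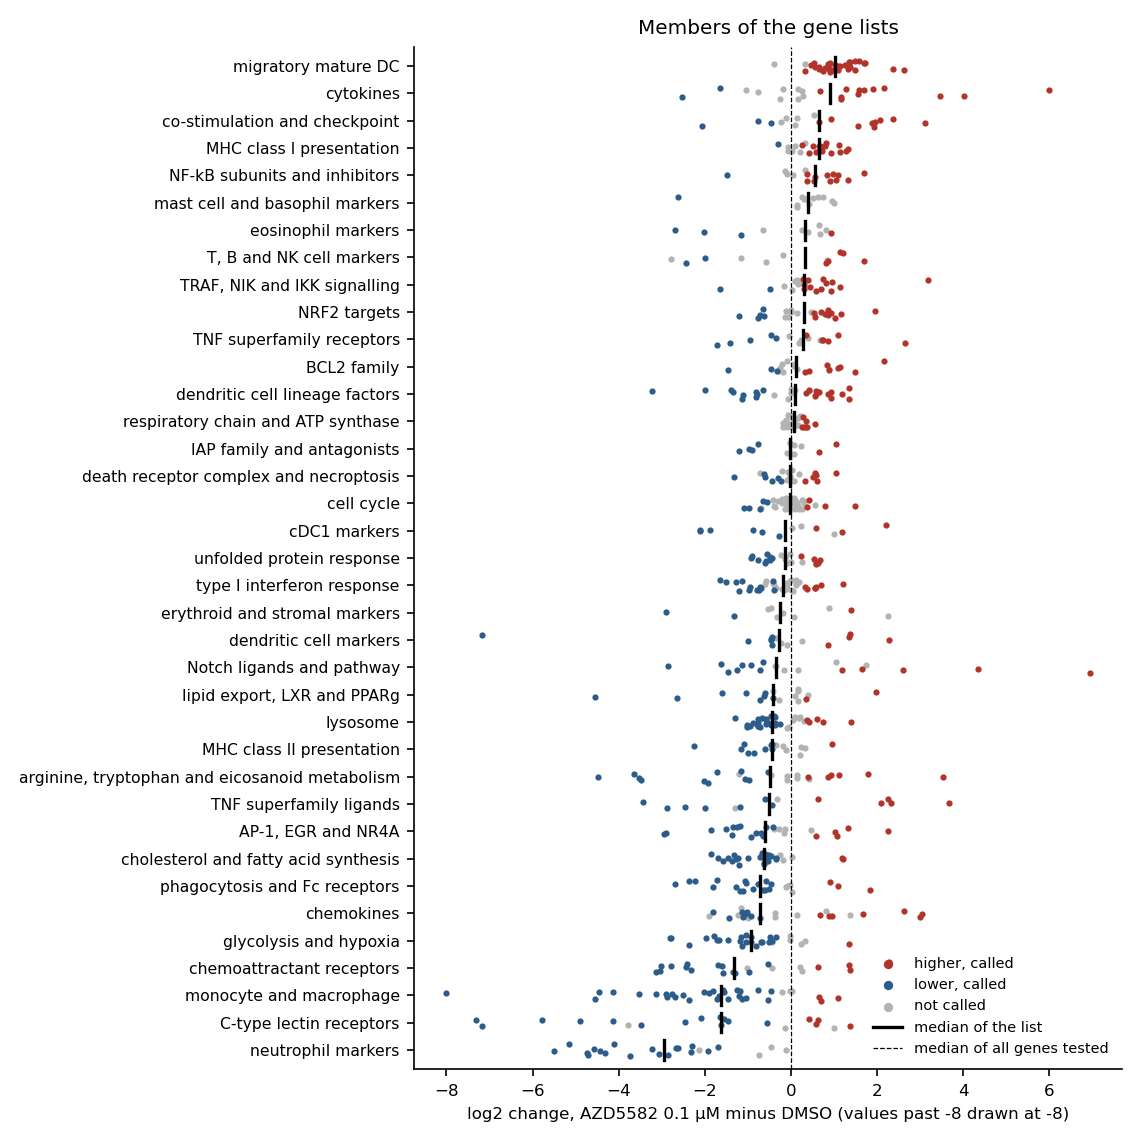
Each point is a tested member of a gene list at its log2 change, AZD5582 0.1 µM minus DMSO; red points were called higher, blue lower, grey not called, the black bar is the list's median and the dashed line the median of all genes tested. The lists run between the migratory dendritic cell genes (median 1.01, 31 of 33 called higher) and the neutrophil genes (median -2.96, 18 of 22 called lower).

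Transcription factors of the myeloid lineages moved both ways. Of 29 dendritic cell lineage factors and receptors, 13 rose and 10 fell. Zbtb46, a factor of the dendritic cell lineage, had 176, 153 and 153 CPM with 0.1 µM and 55.00, 67.03 and 68.9 CPM with DMSO (1.34 ± 0.12, SE, adjusted p = 8.3e-08). Irf1, an interferon regulatory factor, had 778, 679.99 and 741 CPM against 262, 314 and 286 CPM (1.35 ± 0.10, SE, adjusted p = 1.3e-08). Klf4, a factor of monocyte development, had 9.62, 9.85 and 8.44 CPM against 40.5, 41.6 and 28.7 CPM, and Zeb2 had 75.9, 90.00 and 78.9 CPM against 175, 162 and 194 CPM. Flt3, the receptor of the dendritic cell growth factor, rose by 0.86 ± 0.21 (SE). Of 24 AP-1, EGR and NR4A genes, 14 fell and 5 rose, with a median change of -0.61. Egr1, an early response gene, had 13.4, 17.8 and 16.7 CPM against 146, 129.6 and 95.1 CPM (-2.95 ± 0.16, SE, adjusted p = 5.0e-10), and Maf, a macrophage factor, 10.03, 11.7 and 10.3 CPM against 63.2, 62.4 and 113 CPM. Among the rises were Nr4a2, an orphan nuclear receptor, with 46.8, 45.3 and 48.6 CPM against 6.30, 9.25 and 14.3 CPM, and Dusp1, a MAP kinase phosphatase, with 269, 219 and 247 CPM against 84.7, 105 and 103 CPM. Of 38 type I interferon response genes 7 rose and 13 fell. Among the falls was Ifi204, a DNA sensor, with 18.3, 32.1 and 24.3 CPM against 75.1, 84.05 and 76.2 CPM.

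Of 20 BCL2 family genes, 8 rose and 3 fell, and the rises held the killers Bax and Bik (1.5 for Bik, 0.32 for Bax) beside survival genes. Bik was at a low level, with a mean of 0.63 CPM with 0.1 µM and 0.23 CPM with DMSO. The call for Bax was lost without treated library 1 or 3 or DMSO library 2 (adjusted p = 0.095, 0.056 and 0.070), and that for Bik without treated library 1 or DMSO library 1 or 2 (adjusted p = 0.055, 0.076 and 0.063). Bcl2l1, the gene of the anti-apoptotic BCL-XL, had 327, 287 and 265 CPM with 0.1 µM and 60.6, 66.97 and 70.9 CPM with DMSO (2.15 ± 0.11, SE, adjusted p = 2.7e-10). The A1 genes Bcl2a1a, Bcl2a1b and Bcl2a1d rose by 0.84, 0.88 and 1.13 and are near-identical copies, so these values are not separate evidence. Bnip3, a gene of hypoxia and mitochondrial clearance, fell by 1.46, and Bbc3, which encodes the killer PUMA, by 0.46. The count of rises was 5 without treated library 1 and with all 24 libraries. Of 21 death receptor and necroptosis genes, 6 rose and 6 fell, where 19.9% of all genes rose and 20.3% fell, and 2 rose and 2 fell with all 24 libraries. Cflar, the decoy that keeps caspase 8 in check, had 328, 310.2 and 312 CPM against 136, 162 and 161 CPM (1.05 ± 0.10, SE, adjusted p = 9.5e-08). The caspase genes Casp6, Casp9 and Casp1 fell by 0.63, 0.44 and 0.61.

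Metabolic genes fell in several groups. Of 29 cholesterol and fatty acid synthesis genes, 24 fell and 2 rose, with a median change of -0.64. Insig1, a sterol-induced retention protein, had 17.4, 15.8 and 18.9 CPM with 0.1 µM and 62.96, 55.3 and 49.98 CPM with DMSO (-1.69 ± 0.12, SE, adjusted p = 4.3e-09). The rises were Pmvk and Idi1, enzymes of the isoprenoid stretch of the pathway. Pmvk had 117, 98.2 and 101 CPM against 44.8, 44.3 and 48.7 CPM. Idi1 had 165, 115 and 145 CPM against 55.1, 57.5 and 75.6 CPM. In the same stretch Mvd and Fdps fell, with log2 changes of -0.505 and -0.637, and Mvk was not called (-0.253). Of 28 glycolysis and hypoxia genes, 22 fell and 1 rose, with a median of -0.93. Hk2, a hexokinase, had 26.7, 32.7 and 26.6 CPM against 109, 105 and 69.5 CPM, and Pfkfb4, a regulator of phosphofructokinase, 10.8, 12.96 and 11.5 CPM against 51.9, 42.8 and 43.7 CPM. Pfkfb3, its relative, rose, with 1322, 1170.5 and 1471 CPM against 446, 509 and 617 CPM (1.33 ± 0.14, SE, adjusted p = 5.6e-07).

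Of 24 arginine, tryptophan and eicosanoid genes, 11 fell and 6 rose. Alox5ap, which presents arachidonic acid to the leukotriene enzyme, had 119.6, 131 and 127 CPM with 0.1 µM and 438, 408 and 394 CPM with DMSO, and Lta4h, which makes leukotriene B4, 47.4, 48.9 and 50.2 CPM against 103, 98.03 and 87.3 CPM. Ptgs2, the inducible prostaglandin enzyme, rose, with 145, 89.4 and 143 CPM against 5.54, 13.2 and 14.03 CPM. The arginase Arg2 rose, with 107, 99.9 and 97.04 CPM against 23.98, 32.3 and 31.5 CPM (1.79 ± 0.10, SE, adjusted p = 5.7e-10), and Kmo, which hydroxylates kynurenine, fell, with 1.35, 1.88 and 1.44 CPM against 20.9, 23.3 and 13.97 CPM. Of 17 lipid export and PPAR genes 8 fell and 2 rose. Pparg, a nuclear receptor for fatty acids, fell, with 5.79, 6.11 and 4.98 CPM against 17.3, 17.4 and 16.1 CPM, and Nr1h3, the sterol receptor LXRα, rose, with 52.1, 47.3 and 77.9 CPM against 14.5, 13.98 and 16.9 CPM. The 2 rises were 1 without treated library 1 or 3 or DMSO library 1 or 2, and 4 without DMSO library 3.

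Against the higher doses, 1849 genes (11.4%) differed at 0.5 µM from 0.1 µM, and 3036 genes (18.8%) at 1 µM from 0.1 µM. At 1 µM 1119 genes (6.93%) were higher and 1917 (11.9%) were lower than at 0.1 µM. These comparisons share the 0.1 µM libraries with the one above, so a chance deviation of those libraries would enter both with opposite sign, and the values are given side by side. The counts depended on single libraries of the lowest dose: at 1 µM against 0.1 µM there were 1831 calls without treated library 2 and 1968 without treated library 3, and at 0.5 µM against 0.1 µM there were 1062 and 1167. Without library 3 at 0.5 µM there were 1229.

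Some genes were already near their level of the highest dose. By rule, these had a 95% interval for 1 µM over 0.1 µM within 0.5 log2 of 0. Csf1 had 46.6, 54.5 and 44.1 CPM with DMSO, 206, 218 and 227 CPM at 0.1 µM, 223, 177 and 217 CPM at 0.5 µM and 257, 192 and 222 CPM at 1 µM. The difference between 1 and 0.1 µM was 0.04 (95% interval -0.20 to 0.29). Krba1, Gcsam, Kirrel and Loxl3 were the other rises of this kind, with 1 µM minus 0.1 µM at 0.07, 0.07, 0.04 and -0.18. Gcsam is named for germinal centre B cells. Traf3 was close too, at 0.03 (95% interval -0.19 to 0.24). Among falls, Lbr, a receptor of the nuclear envelope with a sterol reductase domain, had 32.3, 29.6 and 30.2 CPM with DMSO, 7.83, 6.38 and 7.52 CPM at 0.1 µM, 8.89, 8.92 and 8.11 CPM at 0.5 µM and 8.62, 7.55 and 7.92 CPM at 1 µM. Fam43a, Arhgef18, Fmo5 and the Rac activator Tiam1 were alike in this, with intervals of -0.34 to 0.26, -0.49 to 0.15, -0.43 to 0.20 and -0.42 to 0.31.

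Other genes went further. Dll4 had 63.1, 58.6 and 75.5 CPM at 0.5 µM and 77.6, 62.7 and 87.5 CPM at 1 µM, a difference from 0.1 µM of 1.17 ± 0.20 (SE, adjusted p = 6.7e-04) at 1 µM. Il6, an inflammatory cytokine, had 4.63, 6.10 and 5.67 CPM with DMSO, 93.9, 44.4 and 41.04 CPM at 0.1 µM, 171, 138 and 118 CPM at 0.5 µM and 189, 137 and 122 CPM at 1 µM (1.32 ± 0.27, SE, adjusted p = 0.0033 for 1 µM minus 0.1 µM). Library 1 at 0.1 µM stood well above the other 0.1 µM libraries, and all 3 lay above DMSO and below the higher doses. Among the migratory dendritic cell genes 14 were higher and 1 was lower at 1 µM than at 0.1 µM, where 6.93% of all genes were higher. Among the macrophage genes 0 were higher and 31 lower by edgeR's test, where 11.9% of all genes were lower, and 15 were lower with all 24 libraries.

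Another kind was moved most by the lowest dose and stood nearer to DMSO at the higher ones. Ctsk, a collagen-cleaving cathepsin, had 31.96, 41.6 and 29.98 CPM with DMSO, 87.9, 99.2 and 84.6 CPM at 0.1 µM, 51.6, 47.8 and 40.6 CPM at 0.5 µM and 43.3, 36.9 and 37.7 CPM at 1 µM, where it was -1.21 ± 0.13 (SE, adjusted p = 5.3e-06) from 0.1 µM. Cfb, complement factor B, had 11.3, 14.96 and 9.12 CPM with DMSO, 32.3, 39.1 and 37.2 CPM at 0.1 µM, 19.04, 17.8 and 18.1 CPM at 0.5 µM and 19.3, 16.1 and 15.02 CPM at 1 µM. In both genes the 0.1 µM libraries lay above every other library shown. Stra6l, Slc6a12, a betaine transporter, and Ctnnal1 met the same rule, with 1 µM minus 0.1 µM at -1.40, -1.09 and -1.38. Among falls, Stard4, a sterol carrier, had 56.8, 47.2 and 48.96 CPM with DMSO, 20.98, 17.3 and 17.4 CPM at 0.1 µM, 33.01, 26.7 and 26.4 CPM at 0.5 µM and 33.9, 29.6 and 27.1 CPM at 1 µM. The higher doses lay above the 0.1 µM libraries and still below DMSO (0.70 ± 0.12, SE, adjusted p = 3.1e-04 for 1 µM minus 0.1 µM). The same order was seen in Ifitm1, an antiviral membrane protein, with 619, 667 and 482 CPM with DMSO, 179.7, 172 and 135 CPM at 0.1 µM, 238, 349.7 and 200.5 CPM at 0.5 µM and 355, 339 and 233 CPM at 1 µM. Nrep and Nhsl2 met the same rule, at 0.73 and 0.64. Of the 29 cholesterol and fatty acid genes 17 were higher and 3 lower at 1 µM than at 0.1 µM, with a median difference of 0.44 against 0.00 for all genes, of which 6.93% were higher. The 17 became 12 with the 2 groups alone and 4 with all 24 libraries.

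Cell cycle genes were mostly not called at the lowest dose. Of 40 tested, 4 rose and 5 fell with 0.1 µM against DMSO, where 40.3% of all genes were called, and the median change was -0.03. Without treated library 2, whose cell cycle levels were the highest of that group, 2 rose and 8 fell, and without DMSO library 3, 2 rose. Without the filter on low counts 9 fell, and with all 24 libraries 1 rose and 1 fell. At 1 µM against 0.1 µM 0 rose and 33 of the 40 fell by edgeR's test, with a median difference of -1.54, where 11.9% of all genes fell. The 33 became 8 with all 24 libraries, 30 to 35 on leaving out single libraries, and 32 without 1 µM library 1, whose mitochondrial share was the highest of all GM-CSF libraries at 8.04%. Ccna2, cyclin A2, had 14.8, 20.1 and 15.7 CPM with DMSO, 13.5, 25.4 and 16.4 CPM at 0.1 µM, 2.74, 5.60 and 3.80 CPM at 0.5 µM and 0.920, 3.07 and 1.93 CPM at 1 µM. The DMSO and 0.1 µM libraries overlapped, and both lay above all libraries of the higher doses (-3.21 ± 0.34, SE, adjusted p = 1.8e-05 for 1 µM minus 0.1 µM). The spindle genes Kif20a and Prc1 and the replication factor gene Pclaf also lay higher in both the DMSO and the 0.1 µM libraries than at the higher doses, with 1 µM minus 0.1 µM at -2.67, -2.33 and -2.32. Without treated library 2, Kif20a fell at 0.1 µM against DMSO, by 0.78 (adjusted p = 0.0018 by edgeR). Without the filter on low counts Kif20a was called lower (adjusted p = 0.0033) and Pclaf higher (adjusted p = 0.032) at 0.1 µM against DMSO by edgeR. At 0.1 µM the 95% interval for Ccna2 against DMSO was -0.50 to 0.74, so a change within that interval is not excluded for this gene. Within the list Cenpa, a centromere histone, fell at 0.1 µM already, with 14.9, 14.6 and 12.5 CPM against 25.5, 28.5 and 28.4 CPM with DMSO, and Tyms, thymidylate synthase, rose, with 30.96, 29.5 and 19.3 CPM against 9.80, 11.96 and 6.56 CPM.

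Some genes rose at the higher doses alone by the rule, which named only the largest changes, up to 5 genes a direction. Hopx, a homeodomain protein, had 38.1, 41.8 and 36.99 CPM with DMSO, 46.1, 38.1 and 30.1 CPM at 0.1 µM, 89.3, 83.5 and 70.6 CPM at 0.5 µM and 129, 94.1 and 76.6 CPM at 1 µM (1.39 ± 0.20, SE, adjusted p = 1.7e-04 for 1 µM minus 0.1 µM). Egfr, a receptor tyrosine kinase like Erbb2, had 4.89 ± 0.656 CPM with DMSO, 5.0 ± 0.285 CPM at 0.1 µM and 10.2 ± 0.337 CPM at 1 µM (SD, n = 3 each). Afap1l2, Hip1r and Tcea3 were of the same kind, at 1.43, 1.24 and 0.98 for 1 µM minus 0.1 µM, and Ly6i was lower at 1 µM than at 0.1 µM, at -2.30. At 0.1 µM against DMSO, Ly6i was called higher without the filter (adjusted p = 8.1e-04) and with the 2 groups alone (adjusted p = 0.049) by edgeR. Of the 38 type I interferon genes 25 were lower and 0 higher at 1 µM than at 0.1 µM by edgeR's test (median difference -0.89), where 11.9% of all genes were lower, and 11 were lower with all 24 libraries.

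**Figure D5:**
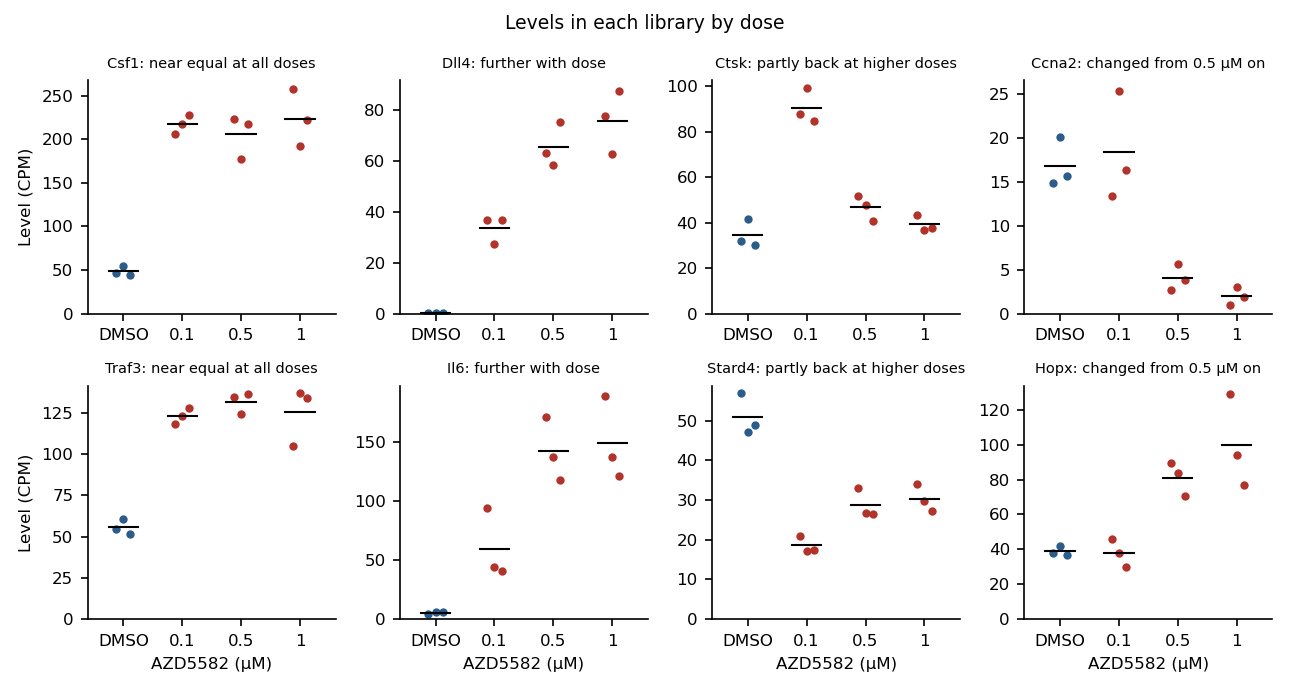
Level in each library (CPM, linear axis from 0) with DMSO and with 0.1, 0.5 and 1 µM AZD5582 for 24 h, 3 libraries each; the bar is the mean and blue marks DMSO. Csf1 and Traf3 are near one level at all 3 doses, Dll4 and Il6 lie higher at 0.5 and 1 µM than at 0.1 µM, Ctsk and Stard4 stand nearer to DMSO at the higher doses, and Ccna2 and Hopx differ from DMSO from 0.5 µM on, with Ccna2 at 13.5, 25.4 and 16.4 CPM at 0.1 µM.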

How the data were processed

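Poly(A) RNA of 6 GM-CSF cultures was sequenced with a stranded kit on NovaSeq6000, per the labels' protocols. The deposited values are raw counts of reads per gene, and the submitters' processing notes name STAR 2.7.3a, HTSeq 0.12.4 and GRCm39. Neither the annotation release nor the strand setting is stated there, so overlapping and antisense genes are uncertain. Of 55414 identifiers, 52133 were named from GENCODE M21. Lines for reads assigned to no gene were left out.

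The 15 GM-CSF libraries were fitted in a single group-means model with edgeR 4.0.16 (R 4.3.3, limma 3.58.1): filterByExpr, TMM scaling, quasi-likelihood test and Benjamini-Hochberg adjustment over 16152 genes. SE is the log2 change divided by the root of F. Folds with few counts depend on edgeR's prior count. No set test was run, so each list is given by its counts and median. On simulated counts of 15718 genes, 96 of 100 genes changed 2-fold, 100 of 100 changed 4-fold and 5 unchanged genes were called. The 200 changed genes lay above a minimum level, and all other genes were equal between groups. These rates need not hold in the data, where 40.3% of genes were called, nor for genes at low levels. DESeq2 1.42.0, other scaling, no filter, other sample sets, a replicate block and leaving out each library were the alternatives. Samples that share a number are not stated to share mice, so samples were not paired in the main fit. Deviations of same-numbered samples correlated by 0.06, 0.08 and 0.05, and those of samples with different numbers by -0.069 to 0.006.

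The members, lists and tests were chosen with earlier results of these data known. Named genes were the 15 largest rises and falls (protein-coding, at least 10 CPM in a group, same direction in 3 pairs), a panel of regulators, up to 4 called list members of smallest p with 2 called the other way, and up to 5 genes a direction for each dose pattern. Cd74, Slco5a1, Nr4a3, Il1a, Il1b, H2-D1, Ciita, H2-Eb1, Lyz2, Spp1, Bax, Bik, Nqo1 and Hspa5 were named after their values were seen. Some genes that the rule named are not reported here. If replicates were not separate cultures, p-values measure only the spread between these samples.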

Additional observations from a re-analysis of the deposited data

How the results depend on the processing

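The count of genes called with 0.1 µM against DMSO, 6503, stayed within 1.5 times under DESeq2 (6778), other scaling, no filter on low counts, the 2 groups alone (6588) and an adjusted p under 0.01 (4755), and lay between 5348 and 6450 on leaving out single libraries. It was 2501 with a log2 change past 1, and 3874, of which 1614 higher, when all 24 libraries were fitted together. That fit also gave 85 calls for 0.5 µM and 441 for 1 µM against 0.1 µM, in place of 1849 and 3036. With the 2 groups alone there were 1785 calls for 1 µM against 0.1 µM. Leaving out single libraries gave 1062 to 1737 calls at 0.5 µM and 1831 to 2937 at 1 µM against 0.1 µM. The common spread between replicates estimated by edgeR (coefficient of variation) was 0.1457 in the main fit and 0.2722 with all 24 libraries. The cause of these differences in counts was not tested.

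With replicate number as a block there were 6822 calls for 0.1 µM against DMSO (6371 with these groups alone), 2177 (4060) for 0.5 µM and 3457 (2541) for 1 µM against 0.1 µM. Each 0.1 µM library correlated best with the DMSO library of its own number, a hint from the data and not from the design. With the block 3 mast cell and basophil genes rose and 8 cell cycle genes fell, Kif20a was called lower (adjusted p = 0.028 by edgeR) and Pclaf higher (adjusted p = 0.039 by edgeR), and with the 2 groups alone Ly6i was called higher (adjusted p = 0.0097 by edgeR).

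Of 254 named genes, 66 changed call or direction under some alternative, 49 of them in the fit of all 24 libraries and 28 elsewhere. 7 genes, none of them called in the main comparison, changed sign. Without single libraries the log2 change was -0.13 to 0.18 for Xiap, -0.20 to 0.10 for Hopx, -0.13 to 0.16 for Hip1r, -0.075 to 0.12 for Egfr, -0.007 to 0.35 for Tcea3, -0.18 to 0.30 for Ccna2 and -0.38 to 0.073 for Prc1, and with all 24 libraries it was -0.039 for Egfr. Of 962 list counts, 85 moved by over 1.5 times, 63 of them from a count of 5 or fewer. In the fit of all 24 libraries 30 moved, among them cytokines (7 higher), chemokines (4 lower), macrophage genes (0 higher, 26 lower by edgeR's test), lysosomal genes (3 higher), type I interferon genes (4 higher, 8 lower) and arginine, tryptophan and eicosanoid genes (3 higher, 6 lower).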

Other observations

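Antioxidant genes moved both ways. Of 22 targets of the stress factor NRF2, 10 rose and 5 fell with 0.1 µM against DMSO (5 and 3 with all 24 libraries), where 19.9% of all genes rose and 20.3% fell, with a median log2 change of 0.30. Nqo1, a quinone reductase, had 25.7, 21.4 and 27.5 CPM with 0.1 µM and 12.7, 10.2 and 13.8 CPM with DMSO (1.02 ± 0.27, SE, adjusted p = 0.0059 by edgeR), and Slc7a11, the cystine importer, had 341, 312 and 293 CPM against 134, 115 and 171 CPM (1.17 ± 0.13, SE, adjusted p = 8.6e-07 by edgeR). The falls held Taldo1 and Tkt, enzymes of the pentose phosphate pathway, at -0.78 and -0.64. Of 22 genes of the unfolded protein response, 6 rose and 9 fell (2 and 5 with all 24 libraries). The rises held Sel1l and Edem1 at 0.68 and 0.63. The falls held Herpud1 at -0.91 and Hspa5, the main chaperone of the endoplasmic reticulum, at -0.45.

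Of 30 respiratory chain and ATP synthase genes 7 rose and 0 fell by edgeR's test, near the 19.9% of all genes that rose, with a median of 0.06. Without the filter on low counts 4 rose, and with all 24 libraries 0 rose. Among noncoding genes fewer were called than among protein-coding genes. Of 437 lincRNAs 48 rose and 57 fell, and of 416 antisense genes 50 rose and 57 fell. Among 13270 protein-coding genes there were 2934 rises and 3017 falls. The classes were not matched by level, and the part of level in this difference was not tested.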
